A study of Mus musculus with 10 samples.

Results

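The dystrophin glycoprotein complex was followed here through 8 genes, Dmd, Utrn, Dag1, Dtna, Sgca, Sgcb, Sgcd and Sspn, chosen by name, whose rows were found by matching the RefSeq transcripts of the expression table to gene symbols. All 8 had a row among the 24160 of the table, and all 8 were among the 14611 genes abundant enough to be tested. Messenger RNA came from the posterior wall of the left ventricle of C57BL6/J mice aged 30 weeks, housed at 24 °C and bred from heterozygous parents, in 6 libraries from MC4R-/- mice (the knockout) and 4 from wild type mice. No other allele, agent or treatment is named for either genotype, and the knockout is not described as restricted to a cell type. Mc4r encodes the melanocortin 4 receptor, a receptor through which the brain regulates appetite, and the title of the series names dilated cardiomyopathy as the outcome of its loss. The comparison of genotypes asks whether the transcripts of this complex differ between knockout and wild type left ventricle. That each library is a separate animal is not stated in so many words, so the spread behind every p-value is that between libraries, which may be technical.

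Dystrophin is a long rod under the muscle cell membrane that binds cytoskeletal actin at one end and the membrane protein beta-dystroglycan at the other. Outside the cell, alpha-dystroglycan holds laminin and related matrix proteins through sugar chains, so the complex forms a mechanical link from the cytoskeleton to the basement membrane. The sarcoglycans and sarcospan brace dystroglycan in the membrane, and dystrobrevin and the syntrophins dock signalling proteins to dystrophin from inside. Inherited loss of dystrophin or of a sarcoglycan causes muscular dystrophy and, in many patients and animal models, dilated cardiomyopathy.

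Depth and composition of the libraries set the precision of what follows. The libraries held between 4145033 reads (wild type replicate 3) and 6425785 reads (wild type replicate 4) in genes, of which the top 10 genes took 11.8 to 12.9%. Values are normalized counts, which are reads scaled by 1 factor per library and not by gene length. The targeted gene Mc4r gave 4 reads in the knockout and 2 in wild type, summed over libraries, and never more than 2 in a library, so at this depth it checks no label. Cardiomyocyte markers (8 genes, summed) reached 411672 to 473477 normalized counts in knockout libraries and 432471 to 481610 in those of wild type. Among the 6 skeletal muscle markers, the myosins Myh2 and Myh4 were at 0 in every library. Myh1, Actn3 and Tnnt3 never exceeded 5.42, while Ckm ran from 8018 to 10984. Of the libraries that stood apart, wild type replicate 2 had a summed lymphocyte marker level of 478.4, against at most 42.3 in any other library, and knockout replicate 5 had a summed atrial marker level of 3155, against at most 1338 elsewhere. Wild type replicate 2 also held 133.6 normalized counts of Xist, against at most 7.92 elsewhere, although the Y-linked Ddx3y was at 340.3 or more in all 10 libraries.

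None of the 8 transcripts passed an adjusted p of 0.05 in either direction (0 higher and 0 lower, limma with Benjamini-Hochberg adjustment over all tested genes; 0 by edgeR and 0 by DESeq2). Over all tested genes 0.287% were called higher and 0.171% lower in the knockout, so a count of 0 among 8 genes is near this background. At an unadjusted p under 0.05 there was 1 member of 8 (12.5%), Dag1, against 9.6% of all tested genes. Dag1 was also the only member whose 6 knockout and 4 wild type values did not overlap, which was true of 2.28% of all tested genes. The median log2 fold change of the members was -0.05, with 2 higher and 6 lower, against a median of -0.01 over all tested genes. In wild type replicate 2 the level of 6 members was the lowest of the wild type libraries. The share of all tested genes lowest in that library was not counted. Without it the members' median was -0.10, with 6 lower, 2 higher and no adjusted p under 0.364 (limma), against -0.0003 over all tested genes. Leaving out a gene's lowest wild type library lowers its fold change by construction, so this move is not a separate result. A level in ventricle RNA does not tell fewer cells of a type from less RNA per cell.

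**Figure D1:**
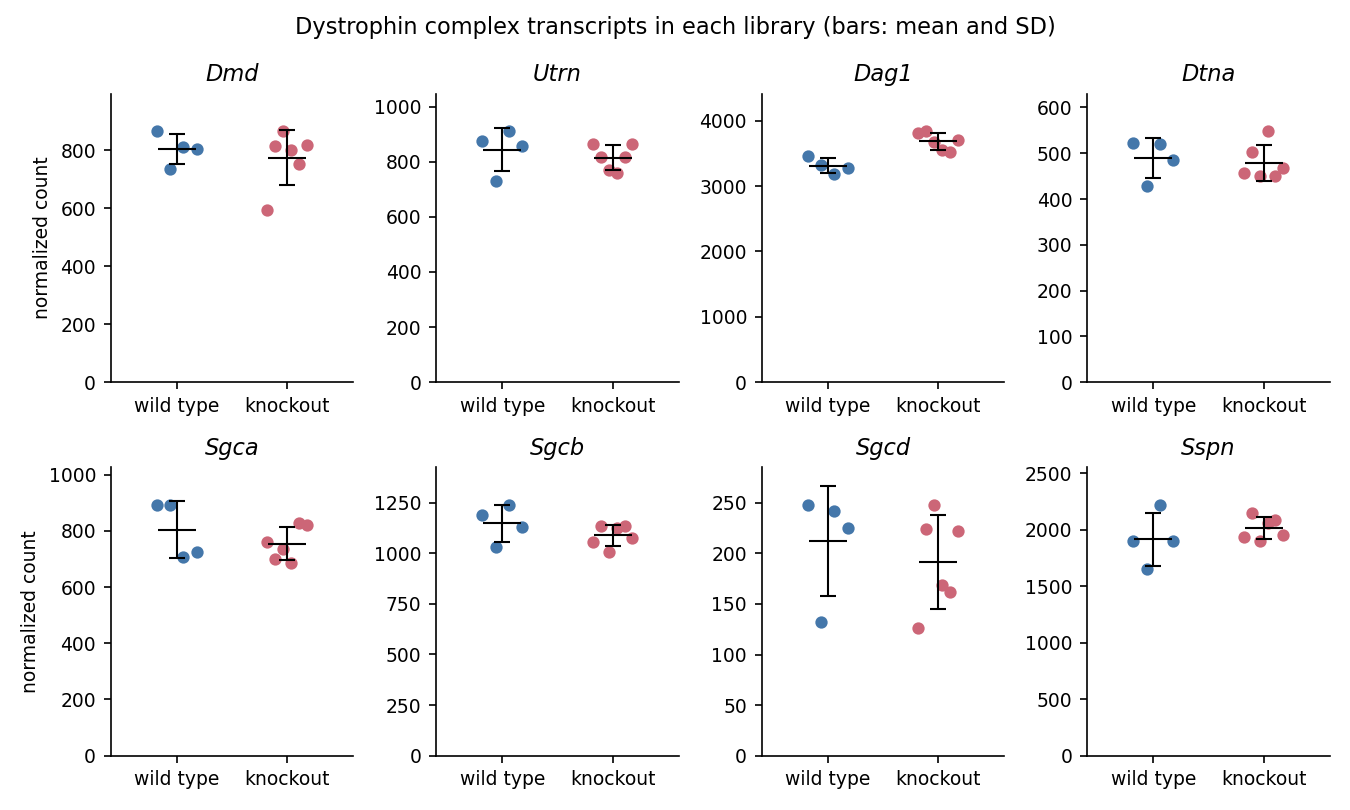
Normalized count (y axis, from 0) of each of the 8 genes in every library, with wild type in blue (n = 4) and knockout in red (n = 6); points are libraries and bars give the mean ± SD. The Dag1 panel is the one in which the 2 colours do not overlap, and Sgcd has the widest relative spread in both genotypes.

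Dag1 encodes a single precursor that is cut into alpha-dystroglycan, the laminin receptor, and beta-dystroglycan, which spans the membrane and binds dystrophin. Its gene lies on chromosome 9 from 108204861 to 108263977 (GRCm38). The wild type libraries had 3458, 3324, 3188 and 3283 normalized counts in replicates 1 to 4, and the knockout libraries had a lowest value of 3527, a median of 3689 and a highest value of 3840. Every knockout library was therefore above every wild type library, with the nearest pair being knockout replicate 5 and wild type replicate 1. The means were 3685 ± 131 (SD, n = 6) and 3313 ± 112 (SD, n = 4), a log2 fold change of 0.15 ± 0.06 (SE), or 1.11-fold with a 95% interval of 1.02 to 1.21. The adjusted p was 0.335 by limma, 0.339 by edgeR and 0.0797 by DESeq2, none of them past the threshold. An exact two-sided permutation test over the 210 ways to assign the genotypes gave p = 0.00476, which is the smallest it can give, and 0.322 after adjustment over all tested genes. Leaving out any 1 library kept the log2 fold change between 0.13 and 0.17, and without wild type replicate 2 it was 0.16. The precision here is the best of the 8, with 2303 to 4219 reads per library. Of the summed marker lists, only that of macrophages did not overlap between the genotypes either. It ran from 1119 to 1263 in knockout libraries and from 882 to 1054 in wild type, with 5 of 6 genes higher. All 6 fibroblast markers had higher means in the knockout, with sums that overlapped (5426 to 6165 against 4669 to 5574). Of 8 cardiomyocyte markers 6 had lower means in the knockout. At an unadjusted p under 0.05 (limma) there were 0 of the 8, against 9.6% of all tested genes. The part of cell content in the Dag1 difference was not tested.

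The stretch just upstream of a start of Dag1 is printed because Dag1 alone separated the genotypes, and that of Dmd because dystrophin is the core of the complex and its mean moved little. Both are the 250 bases that end just before a transcript start in RefSeq (GRCm38.p6), where a transcript of the GENCODE M21 annotation also begins. Each of the genes has 2 starts in the promoter table, which held an entry for 7 of the 8 members. The Dag1 stretch is chr9:108263959-108264208 on the minus strand. The Dmd stretch is chrX:82948620-82948869 on the plus strand and lies inside the span of the gene. Capitals mark matches on either strand to the E-box CANNTG, the GC-box GGGCGG, the string TATAAA and the CArG-box, a motif bound by serum response factor.
Dag1: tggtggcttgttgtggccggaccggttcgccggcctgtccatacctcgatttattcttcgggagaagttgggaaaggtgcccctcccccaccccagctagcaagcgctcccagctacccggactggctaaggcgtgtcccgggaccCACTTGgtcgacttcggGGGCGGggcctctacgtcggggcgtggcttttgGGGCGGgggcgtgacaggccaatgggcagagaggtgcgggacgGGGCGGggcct
Dmd: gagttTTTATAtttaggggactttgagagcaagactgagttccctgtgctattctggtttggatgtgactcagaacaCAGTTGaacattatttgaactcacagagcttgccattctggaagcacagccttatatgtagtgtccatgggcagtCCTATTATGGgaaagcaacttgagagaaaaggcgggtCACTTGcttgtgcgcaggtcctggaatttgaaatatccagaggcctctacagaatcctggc
The Dag1 stretch was 67.6% G or C with 21 CpG dinucleotides, against a median of 52.4% over 32851 such stretches, and the Dmd stretch was 45.2% with 2 CpG. Counting back from the start to the first base of a match, Dag1 held 3 GC-boxes, at 87, 54 and 11 bases, and 1 E-box at 104 bases. Dmd held 2 E-boxes, at 173 and 61 bases, a CArG-box at 98 bases and a TATAAA string, read on the other strand, at 245 bases. An E-box was present in 66.2% of all such stretches, a GC-box in 32.7%, the TATAAA string in 12.4% and a CArG-box in 1.47%. No match was found for the GC-box in the Dmd stretch or for the CArG-box in the Dag1 stretch, which says only that these letters are not in these windows.

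Dystrophin and utrophin, its close relative found under the membrane at neuromuscular junctions and in fetal or regenerating muscle, both had slightly lower means in the knockout. Dmd, on chromosome X from 82814664 to 85205050, had 865.9, 736.6, 812.7 and 802.9 normalized counts in wild type replicates 1 to 4. The knockout libraries ran from 594.9 through a median of 809.2 to 866.0. The groups overlapped over nearly their whole range, and the low value of knockout replicate 1 stood below all other libraries. The means were 775 ± 95.3 (SD, n = 6) and 804.5 ± 53.1 (SD, n = 4), a log2 fold change of -0.06 ± 0.09 (SE; limma, adjusted p = 0.877), and the 95% interval of the fold ran from 0.847 to 1.08. Without knockout replicate 1 the log2 fold change was 0.01, and without wild type replicate 2 it was -0.10, so the sign of the Dmd difference rested on 1 library.

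Utrn, on chromosome 10 from 12382187 to 12869888, had 873.6, 731.2, 910.9 and 856.7 normalized counts in the wild type libraries and from 760.7 through a median of 816.2 to 865.6 in the knockout. Wild type replicate 2 was the lowest of all 10 libraries and wild type replicate 3 the highest, with the knockout libraries between them. The log2 fold change was -0.05 ± 0.07 (SE; limma, adjusted p = 0.895), with a 95% interval of the fold from 0.873 to 1.08. It was -0.11 without wild type replicate 2 and -0.00636 when replicate 3 was left out instead.

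Dtna encodes alpha-dystrobrevin, a dystrophin-related protein that binds the tail of dystrophin and carries syntrophins. It lies on chromosome 18 from 23310006 to 23659719, on the chromosome of Mc4r and 43.2 Mb from it. The wild type libraries had 522.4, 427.9, 519.2 and 486.0 normalized counts, and the knockout libraries ran from 449.7 through a median of 462.3 to 548.2. The groups overlapped, with wild type replicate 2 lowest and knockout replicate 4 highest. The log2 fold change was -0.03 ± 0.08 (SE; limma, adjusted p = 0.95), with a 95% interval of the fold from 0.875 to 1.1. Its sign changed when wild type replicate 1 or 3 was left out (0.00524 and 0.00225), and it was -0.09 without wild type replicate 2.

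The sarcoglycans form a tight subcomplex in the membrane, in which the beta and delta chains are the core and the alpha chain is the one specific to striated muscle. Sgca, on chromosome 11 from 94962777 to 94976327, had 892.8, 893.6, 708.8 and 723.7 normalized counts in wild type replicates 1 to 4. The knockout libraries of Sgca ran from 684.5 through a median of 747.7 to 827.6. The wild type libraries fell in a high pair (replicates 1 and 2) and a low pair (replicates 3 and 4) that enclosed most of the knockout values. The log2 fold change was -0.09 ± 0.08 (SE; limma, adjusted p = 0.790), with a 95% interval of the fold from 0.838 to 1.06. Without wild type replicate 1 or 2 the log2 fold change was -0.03, and without replicate 3 or 4 it was -0.15 and -0.14.

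Sgcb, which encodes beta-sarcoglycan, lies on chromosome 5 from 73632749 to 73647737. The wild type libraries had 1189, 1029, 1240 and 1131 normalized counts, and the knockout libraries ran from 1009 through a median of 1101 to 1137. Of the wild type libraries, replicates 1 and 3 were above every knockout library and replicates 2 and 4 were within the knockout range. The log2 fold change was -0.07 ± 0.07 (SE; limma, adjusted p = 0.793), with a 95% interval of the fold from 0.862 to 1.05, and the log2 fold change was -0.12 without wild type replicate 2 and -0.03 when replicate 3 was left out instead.

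Sgcd, which encodes delta-sarcoglycan, the gene mutated in a classic hamster model of cardiomyopathy, had the lowest counts and the widest spread. It lies on chromosome 11 from 46971077 to 47989451. Wild type replicates 1 to 4 had 248.2, 131.8, 242.3 and 225.4 normalized counts, and the knockout libraries ran from 126.2 through a median of 195.5 to 247.4. Both genotypes held high libraries, from 222.2 to 248.2, and low ones, which were wild type replicate 2 and knockout replicates 1, 4 and 5 (126.2, 168.8 and 162.1). The coefficient of variation within genotype was 24.7%, or 3.42 times the 7.22% that read counting alone gives at this level. The same ratio ran from 1.86 (Dtna) to 3.72 (Sspn) over the 8 members, so a spread above counting was not particular to Sgcd. The log2 fold change was -0.14 ± 0.24 (SE; limma, adjusted p = 0.904), and the 95% interval of the fold ran from 0.630 to 1.31, so these libraries leave the Sgcd difference the least well known of the 8. The estimate was -0.35 without wild type replicate 2 and -0.02 without knockout replicate 1.

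Sspn encodes sarcospan, a small protein with 4 membrane passes that binds the sarcoglycans, and was the other member with a higher mean in the knockout. It lies on chromosome 6 from 145931873 to 145965225. The wild type libraries had 1901, 1652, 2223 and 1898 normalized counts, and the knockout libraries ran from 1904 through a median of 2004 to 2146. Of the wild type libraries, 3 were below every knockout library and replicate 3 was above them all. The log2 fold change was 0.08 ± 0.07 (SE; limma, adjusted p = 0.791), with a 95% interval of the fold from 0.952 to 1.17. Without wild type replicate 2 it was 0.00727, and with replicate 3 left out instead it was 0.15.

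**Figure D2:**
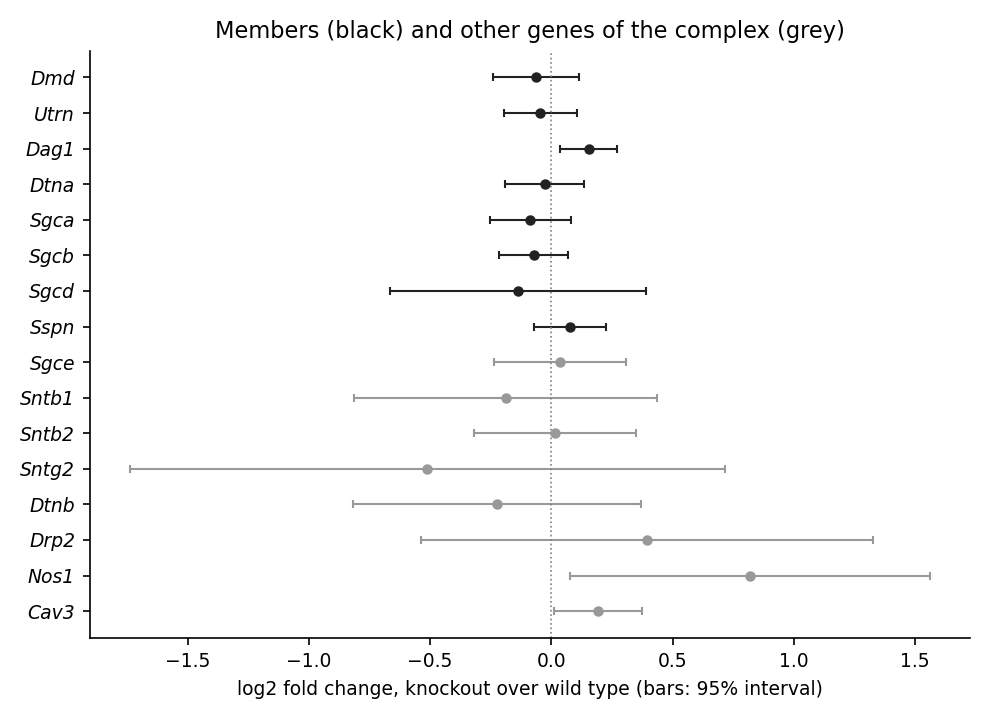
Log2 fold change of knockout over wild type (x axis; points) with its 95% interval from limma (bars) for the 8 members in black and 8 of the 10 tested further genes of the complex in grey. The interval of Dag1 lies above 0 before adjustment for the number of genes, and that of Sgcd is the widest of the members.

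Compared per length of transcript, the members spanned a wide range of levels. Counts were divided by the longest transcript of each gene, averaged over all 10 libraries and given as normalized counts per kb. Dag1 was highest at 624.6 ± 39.7 (SD, n = 10). Sgca at 449 ± 45.4 and Sspn at 446 ± 36.3 followed and did not differ beyond their spread, and Sgcb stood at 294 ± 18.9, below every value of both. Sgcd was at 124 ± 29.6 per kb, well under its partners alpha and beta. Dtna at 76.7 ± 6.18, Utrn at 66.7 ± 4.66 and Dmd at 52.8 ± 5.29 per kb closed the order. The ranges of Sgcd and Dtna overlapped, as did those of Dtna and Utrn, while the highest Dmd library (58.1) was below the lowest Utrn library (59.1). Dag1 made up 29.3 ± 1.82% of the summed level per kb of the 8 members and Dmd 2.47 ± 0.23%.

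The low ranks depend on the transcript taken as the length. The rows of Dmd, Dag1 and Dtna join 6, 7 and 8 RefSeq transcripts, so a short isoform adds its reads to the same row as the full-length one. With the shortest transcript in place of the longest, Dmd came to 423 per kb, Dtna to 303 and Dag1 to 833, so the position of dystrophin and dystrobrevin in the order is not fixed by these data. Dag1 stayed first, and Utrn, Sgca, Sgcb and Sgcd each have the same longest and shortest length.

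**Figure D3:**
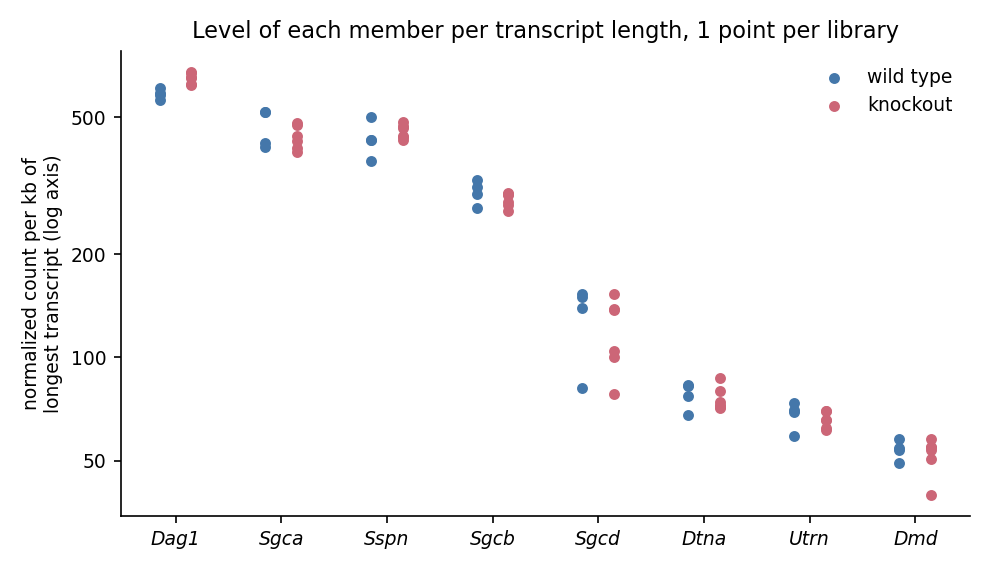
Normalized count per kb of the longest transcript (y axis, log scale) for each member, 1 point per library, wild type in blue and knockout in red. Dag1 lies at the top in all 10 libraries and Dmd at the bottom, and the genotypes overlap except at Dag1.

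Ratios between members within a library were given as descriptions, with no test. Utrophin over dystrophin, per kb of the longest transcript, was 1.29 ± 0.24 in the knockout (SD, n = 6) and 1.26 ± 0.07 in wild type (SD, n = 4), above 1 in 10 of 10 libraries. That order depends on the length taken: as counts not divided by length the ratio ran from 0.889 to 1.45 in the knockout and from 0.993 to 1.12 in wild type, and with the shortest Dmd transcript the level of Dmd per kb (423) was above that of Utrn (66.7). Knockout replicate 1, the library with low Dmd, was the highest at 1.75. Dystroglycan over dystrophin was 12.7 ± 2.09 and 10.9 ± 0.70, again with knockout replicate 1 highest at 16.9. Sarcospan over beta-sarcoglycan ran from 1.55 to 1.62 in the knockout and from 1.37 to 1.53 in wild type, so these groups did not overlap. That ratio was singled out after its values were seen.

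Across the 10 libraries, 28 pairs of members were compared by correlation of log2 values, and 1 passed after adjustment over the 28. Dmd and Sgcd went together, with Pearson's r = 0.849 (permutation test, p = 2e-05, adjusted p = 0.00056) and Spearman's rho = 0.879 (permutation test, p = 0.00153, adjusted p = 0.0428). The relation was r = 0.803 without the 2 libraries farthest from the median of Dmd, knockout replicate 1 and wild type replicate 2. Within genotype, after subtracting each genotype's mean, it was r = 0.843 (permutation test, adjusted p = 0.0171), and without wild type replicate 2 and knockout replicate 5 it was r = 0.907. The within-genotype test shuffled the centred values over all 10 libraries and not inside each genotype, so its p-value is approximate. The 4 libraries low in Sgcd (knockout replicates 1, 4 and 5 and wild type replicate 2) were also the 4 lowest in Dmd, although knockout replicate 4 (802.4) was barely below the next, wild type replicate 4 (802.9). Dmd and Sgcd are also the members with the longest gene spans, 2.39 Mb and 1.02 Mb, followed by Utrn with 0.488 Mb. The value for Dmd with Utrn was r = -0.02. Any part of gene span in these relations was not tested.

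Sgcb and Sspn, whose proteins meet in the membrane, went together within genotype, with r = 0.922 (permutation test, p = 0.00012, adjusted p = 0.00336). This p-value is approximate for the same reason. Over all 10 libraries with the genotypes pooled the value was r = 0.661 and rho = 0.527 (permutation tests, p = 0.0357 and 0.124, adjusted p = 0.277 and 0.579), and it dropped to 0.562 without the libraries farthest in Sgcb and to 0.297 without those farthest in Sspn. The remaining pairs ran from r = -0.63, for Sgca with Sspn (rho = -0.56; permutation tests, adjusted p = 0.277 and 0.547), to 0.74, for Sgcb with Dtna (rho = 0.56; adjusted p = 0.218 and 0.547). The median over the 28 pairs was 0.15 and 15 were positive, so the 8 transcripts did not move as a block between libraries. Libraries share their size factors and their mix of cells across genes, and the part of either in these relations was not tested.

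**Figure D4:**
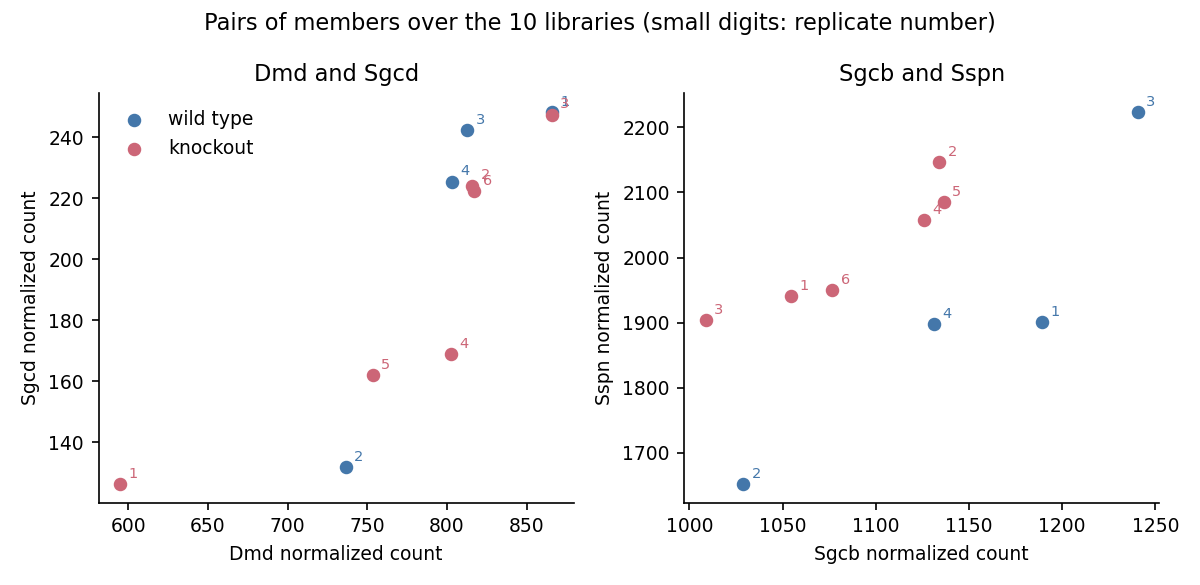
Normalized counts of Dmd against Sgcd (left) and Sgcb against Sspn (right), 1 point per library with its replicate number, wild type in blue and knockout in red. On the left Sgcd rises with Dmd in both colours. Knockout replicate 1 is lowest in both genes, and wild type replicate 2 has the lowest Sgcd for its level of Dmd. On the right the knockout points lie above the wild type points at a like level of Sgcb.

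Among all tested genes, those with a pattern over the 10 libraries most like that of Dmd were Yod1, Tmed3 and Atp13a3, with root mean square differences of standardized log2 values of 0.367, 0.419 and 0.457. Sgcd ranked 14 by this measure, at 0.549, and Utrn 7475. The genes most like Utrn were Golgb1 at 0.218, the predicted gene Gm14326 at 0.414 and Rab17 at 0.417, and the nearest member was Sgcb, at rank 452. Yod1 and Rab17 were low, with means of 15.8 and 11.3 normalized counts. These genes are the closest of all tested genes over only 10 libraries, and how close a match chance alone gives was not tested.

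The other genes of the complex comprise the remaining sarcoglycans, the syntrophins, beta-dystrobrevin, dystrophin-related protein 2, neuronal nitric oxide synthase and caveolin 3. Of 12 such genes 10 were tested, Sgcz and Sntg1 being too low, and 0 passed in either direction by limma or edgeR. By limma 2 had an unadjusted p under 0.05 (20% of the 10, against 9.6% of all tested genes). DESeq2 also called 0, but it gave no adjusted p for Sntb1, Sntg2, Dtnb, Drp2 and Nos1 and so could not call them. The median log2 fold change was 0.05. The smallest p in the list belonged to Nos1, the nitric oxide synthase that syntrophin anchors to the complex, with 10.9 ± 4.53 normalized counts in the knockout (SD, n = 6) and 5.69 ± 2.47 in wild type (SD, n = 4; limma, adjusted p = 0.452). Cav3, the muscle caveolin that binds beta-dystroglycan, had 343.9 ± 26.1 against 301.6 ± 36.8 (limma, adjusted p = 0.473). The groups overlapped for both genes.

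Alpha-dystroglycan binds laminin only after a chain of enzymes has built its sugar, and mutations in these enzymes cause dystroglycanopathies. All 17 genes of that list were tested and 0 passed by limma, edgeR or DESeq2. At an unadjusted p under 0.05 (limma) there were 2 (11.8%, against 9.6% of all tested genes). The median log2 fold change was 0.01, with 9 higher and 8 lower. B3galnt2, which adds the N-acetylgalactosamine of the core sugar, averaged 309.8 ± 39.8 normalized counts in knockout libraries against 250.4 ± 26.5, a log2 fold change of 0.30 ± 0.10 (SE; limma, adjusted p = 0.231). Pomt2, part of the enzyme that adds the first mannose, had 127 ± 11.7 against 107.4 ± 19.7 (adjusted p = 0.509). The row of Dpm1 joins this gene with others, so its value is not its alone.

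Of the matrix proteins that bind the complex, 10 of 11 were tested, Lama1 being too low, and 1 was higher in the knockout and 0 lower (limma; over all tested genes 0.287% and 0.171%). At an unadjusted p under 0.05 there were 2 higher and 1 lower (30% of the 10, against 9.6% of all tested genes), and the list was drawn up with Bgn already known to differ. Bgn encodes biglycan, a small proteoglycan that binds alpha-dystroglycan and the sarcoglycans. It had 1461, 1319, 1337 and 1503 normalized counts in wild type replicates 1 to 4, and from 1621 through a median of 1825 to 2159 in the knockout, with no overlap. It rose by a log2 fold change of 0.40 ± 0.07 (SE; limma, adjusted p = 0.00927; edgeR 0.00828, DESeq2 0.000183), and its highest adjusted p when any 1 library was left out was 0.0369. When limma's trend and robust steps were dropped, Bgn did not pass (adjusted p = 0.254), and it is the only gene called among the 58 tested in the 4 lists of related genes. Fibroblasts also make biglycan, and the 6 fibroblast markers all had higher means in the knockout, with summed levels of 5426 to 6165 against 4669 to 5574, 1 of them (Lum) being called. The macrophage markers given beside Dag1 moved the same way, with 0 of 6 called by limma or edgeR (3 at an unadjusted p under 0.05) and 1, C1qa, by DESeq2 (adjusted p = 0.0454). The part of fibroblast or macrophage content in the Bgn difference was not tested.

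Laminins, the main ligands of dystroglycan, did not pass in either direction. Lama2, the alpha chain of muscle laminin, whose loss causes a congenital muscular dystrophy, had 1044 ± 61.2 normalized counts in the knockout (SD, n = 6) and 1075 ± 53.9 in wild type (SD, n = 4; limma, adjusted p = 0.893); it was named after its values were seen. Agrn, the ligand agrin, had 564.3 ± 52.7 against 498.7 ± 34.7 (limma, adjusted p = 0.468). Egflam, which encodes pikachurin, a dystroglycan ligand best known from the retina, had 100.9 ± 9.37 against 127.2 ± 16.0, a log2 fold change of -0.33 ± 0.12 (adjusted p = 0.291). The median log2 fold change of the list was -0.04.

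The costamere, the rib-like attachment of the outermost myofibrils to the membrane, also holds vinculin, talin, filamin and the laminin-binding integrin. All 21 genes were tested and 0 passed by limma or edgeR, with a median log2 fold change of 0.03. At an unadjusted p under 0.05 (limma) there were 2 (9.52%, against 9.6% of all tested genes). DESeq2 also called 0, but it gave no adjusted p for Krt8, Krt18 and Krt19 and so could not call them. Dysf, which encodes the membrane repair protein dysferlin, averaged 757.3 ± 75.5 normalized counts in knockout libraries against 631.8 ± 56.8, a log2 fold change of 0.26 ± 0.08 (SE; limma, adjusted p = 0.202). Sync, an intermediate filament protein that binds alpha-dystrobrevin, had 120.1 ± 12.4 against 95.97 ± 12.1 (adjusted p = 0.310), and Flnc, the muscle filamin that binds sarcoglycans, 2954 ± 409 against 2600 ± 197 (adjusted p = 0.520). The integrin chains Itga7 and Itgb1, a second laminin receptor of the muscle membrane, had log2 fold changes of 0.06 and 0.07 (adjusted p = 0.882 and 0.811) and were named after their values were seen.

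**Figure D5:**
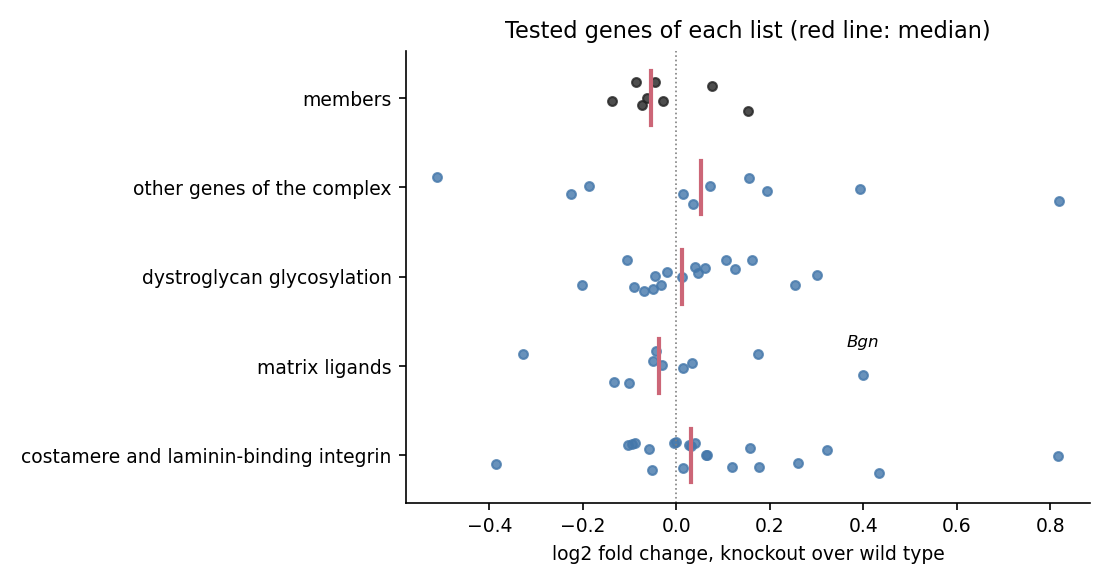
Log2 fold change of knockout over wild type (x axis) of every tested gene of the members and of 4 lists of related genes (rows), 1 point per gene, with the median of each list as a red line. The medians lie between -0.05 and 0.05, and Bgn, labelled, is the only gene called.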

How the data were processed

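Libraries of poly(A) RNA from left ventricular posterior wall, 6 knockout and 4 wild type, were made with a stranded kit per the labels' protocols. The submitters' processing notes name build mm10 and the tools Cuffdiff 2.2.1.3, Cuffnorm 2.2.1.1, Cufflinks 2.2.1, TopHat2 2.1.0 and Bowtie2. The strand setting and annotation are not given in the sources used here. In the table the authors deposited, each signal value is a read count scaled by 1 factor per library, judged from the values: 99.99 to 100% of those above 0 lie within 0.1 of a whole multiple of what 1 read is worth. Rows were named from RefSeq (23984 rows) and, failing that, GENCODE M21 (123 rows).

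The genotypes were compared by limma 3.58.1 (R 4.3.3; trend and robust, two-sided) on log2(normalized count + 1) over 10 libraries. Genes with a mean of at least 1 were tested, with Benjamini-Hochberg adjustment over all 14611 and a threshold of 0.05. This scale understates the change of low genes. Recovered reads were fitted with edgeR 4.0.16 (quasi-likelihood) and DESeq2 1.42.0 as alternatives, beside other pseudocounts, filters, scalings, library weights, a replicate block and leaving out libraries. The limma fit was also run on simulated data with known changes. Its outcome is not reported here, so how often a change the size of that of Dag1 would be called is not given. Correlations used permutation tests of 100000 resamples, and intervals are at 95%. Those within genotype shuffled the centred values over all 10 libraries. Members and lists were chosen with earlier results of these data known. Named genes are every member, of each other list the called genes and the 3 smallest unadjusted p-values, and the 3 genes most like Dmd and Utrn. A few genes taken by this rule are left unreported. Others are marked as chosen after their values were seen.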

Additional observations from a re-analysis of the deposited data

Results flagged for a closer look

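Of 62 groups of values (the members, the 12 genes that the naming rule takes from the other lists and the summed markers, each in 2 genotypes) examined for a library far from the others, 2 were picked out, where chance picks about 1 in 20. Wild type replicate 2 had a summed lymphocyte marker level of 478.4 normalized counts, against 20.8 to 42.3 in the other wild type libraries. Knockout replicate 5 had a summed atrial marker level of 3155 normalized counts, against 539.2 to 943.4 in the other knockout libraries. Neither the members nor those 12 genes had such a library in either genotype.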

How the results depend on the processing

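Over 23 settings the 8 members gave 184 fold changes, of which 0 passed the threshold, 179 kept their direction and 5 changed sign. Other filters on low values, limma without its trend and robust steps, and the permutation test change only the p-value of a member. Its direction could not change in those settings, and they are counted among the 179. The lowest adjusted p was 0.0797, for Dag1 by DESeq2. Leaving out 1 library moved the log2 fold change of Dmd between -0.103 and 0.0126 and that of Dtna between -0.0906 and 0.00524 (both changed sign). With a replicate block that of Dtna was 0.00153, and with both wild type replicate 2 and knockout replicate 5 left out that of Sspn was -0.00309. The count of matrix ligands higher in the knockout, 1, became 0 without limma's trend and robust steps and 0 with the replicate block, where Bgn had adjusted p = 0.099; the cause was not tested. Same-numbered libraries of the 2 genotypes had correlations of -0.15 to -0.03 over 4 pairs, and 0 libraries correlated best with their own number, so the numbers were not taken to pair the animals. The other genes that the naming rule takes from the lists kept their side of the threshold in all settings run, apart from Nos1 by DESeq2, which gave it no adjusted p. No setting moved the median of all genes by more than 0.1. Reads were fewest for Sgcd among the members (129 to 284 per library) and for Nos1 (2 to 17) among the named related genes. The spread of Sgcd within genotype was 3.42 times what read counting alone gives, and over the 8 members this ratio ran from 1.86 to 3.72. With 4 wild type libraries, 1 library can set the sign of a small difference.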
